A study of Mus musculus with 24 samples.

Results

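The 10 genes Gria1, Gria2, Gria3, Gria4, Grin1, Grin2a, Grin2b, Grin2c, Grin2d and Grin3a encode subunits of the AMPA and NMDA receptors. Their mRNA was read in neonatal mouse hippocampus from 16 probes, found as every non-control probe of the array whose gene name was 1 of the 10, among 55681 probes with 36163 gene names. Bilateral hippocampi of male C57BL/6 pups were taken on P9, and RNA of 1 pup was hybridized to each of 15 Agilent 1-colour arrays. The control group (Con, 5 arrays) was untreated, housed normally and handled little. From P5, MS2 pups (5 arrays) received subcutaneous morphine at 2 mg/kg and MS5 pups (5 arrays) at 5 mg/kg, and both groups were also separated from the dam by day, isolated, and exposed to brief apnea (nitrogen and then oxygen). Treated and untreated pups of a litter spent the nights in one cage. Morphine and the stress protocol therefore cannot be told apart in a comparison with Con, whereas MS5 and MS2 differed by dose. Replicates are called by the numbers in the labels, so that MS2 replicate 4 is 1 array. The comparisons asked whether subunit mRNA differed with the morphine and stress treatment and with its dose.

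AMPA and NMDA receptors are tetrameric glutamate-gated cation channels that carry most fast excitatory transmission in the hippocampus. AMPA receptors are assembled from GluA1 to GluA4, and edited GluA2 makes the channel nearly impermeable to calcium. NMDA receptors need GluN1, which binds glycine, together with GluN2 subunits that bind glutamate, or GluN3 subunits. In the forebrain GluN2B predominates around birth and GluN2A comes up during the first postnatal weeks, while GluN2D and GluN3A are typical of early life.

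Each probe is an oligonucleotide of 60 bases on the array. The following 3 carry the patterns described below: the Gria4 and Grin2a probes moved in opposite directions on 1 array, and the Gria3 probe moved less than either. They are placed in coding exons from general knowledge of these genes, which was not checked against an annotation. Each read through without a stop codon in at least 1 frame. Other subunit probes did so too, so this does not show a coding position. They are printed 5′ to 3′ in the sense of the mRNA, in lower case throughout because no base is singled out, with positions on mm9.
Gria4 A_52_P349182 (chr9:4502385-4502444, minus strand): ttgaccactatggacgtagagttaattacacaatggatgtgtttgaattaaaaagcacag
Grin2a A_55_P1974035 (chr16:9579338-9579397, minus strand): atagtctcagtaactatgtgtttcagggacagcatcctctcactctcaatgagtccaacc
Gria3 A_52_P179309 (chrX:39007367-39007426, plus strand): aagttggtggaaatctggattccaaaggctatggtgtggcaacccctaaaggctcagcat
Among the 114 pairs of probes of different subunit genes, the longest run of identical bases was 10. All 16 probes were well above background on all 15 arrays, and 0 spots were saturated. Gria2, Gria3, Gria4, Grin1, Grin2a and Grin2b had 2 probes each, and the other genes had 1. A gene is represented below by 1 probe, one named A_51 or A_52 where there was such a probe, and the brightest where there were several or none.

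As a whole, 3 arrays stood apart. The median spot signal was 121 to 154 on 14 arrays and 58.2 on MS2 replicate 5, the dimmest. MS5 replicate 9 carried Xist, the transcript of the inactive X chromosome, at 11.34 (log2) against 5.89 to 6.08 on the 14 other arrays, although all pups were labelled male. MS2 replicate 4 went against the labelled tissue in its markers. Its summed signal of 12 marker genes of hippocampal principal neurons was 14.87 (log2) against 16.06 to 16.47 on the other arrays, and its sum of 14 thalamic and hypothalamic markers was 15.97 against 13.27 to 14.33. Of the 12 hippocampal markers 9 lay below all other arrays and 1 above, C1ql2, at 8.43 against 7.30 to 8.00. Among the 9 was Neurod6, a transcription factor of pyramidal neurons, at 10.02 against 13.03 to 13.89. All 12 were still well above background on this array. Of the 14 thalamic and hypothalamic markers 8 lay above all other arrays and 1 below, and among the 8 was Slc17a6, the vesicular glutamate transporter VGLUT2, at 14.87 against 11.61 to 12.75. The sum of 5 striatal markers was 14.85 to 16.30 on Con replicate 19, MS2 replicate 5 and MS5 replicates 8, 12 and 14, and 12.77 to 13.20 on the others. The sum of 15 choroid plexus markers was 16.30 and 14.19 on MS5 replicates 9 and 14 and 17.80 to 18.61 on the others. The part of these marker levels in the subunit values was not tested.

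In Con, the mean log2 signal of the representative probes ran from 13.49 ± 0.09 for Gria1 (SD, n = 5, as for all means here) to 8.82 ± 0.14 for Grin2d. Between them stood Gria3 at 12.10 ± 0.11, Grin1 at 12.09 ± 0.11, Grin2b at 12.01 ± 0.34, Gria2 at 11.39 ± 0.21, Grin2a at 11.07 ± 0.22, Grin2c at 10.87 ± 0.40, Grin3a at 10.33 ± 0.34 and Gria4 at 9.87 ± 0.13. This is an order of probe signals at P9 and not of transcript amounts, because each probe has its own brightness. The 2 probes of Grin1 differed by 3.91 in Con and those of Grin2a by 3.17, which is as much as many steps between genes. The gap to the next probe was larger than the summed SDs of both at 3 places: between Gria1 and Gria3, between Grin2b and Gria2, and between Gria4 and Grin2d. The remaining neighbours did not differ beyond their spread. In MS2 and MS5 the mean of Gria1 was again the highest and those of Grin3a, Gria4 and Grin2d the lowest, in that order, whereas the order among Gria3, Grin1 and Grin2b differed from Con in both groups, and Grin2c stood before Grin2a in MS5.

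**Figure D1:**
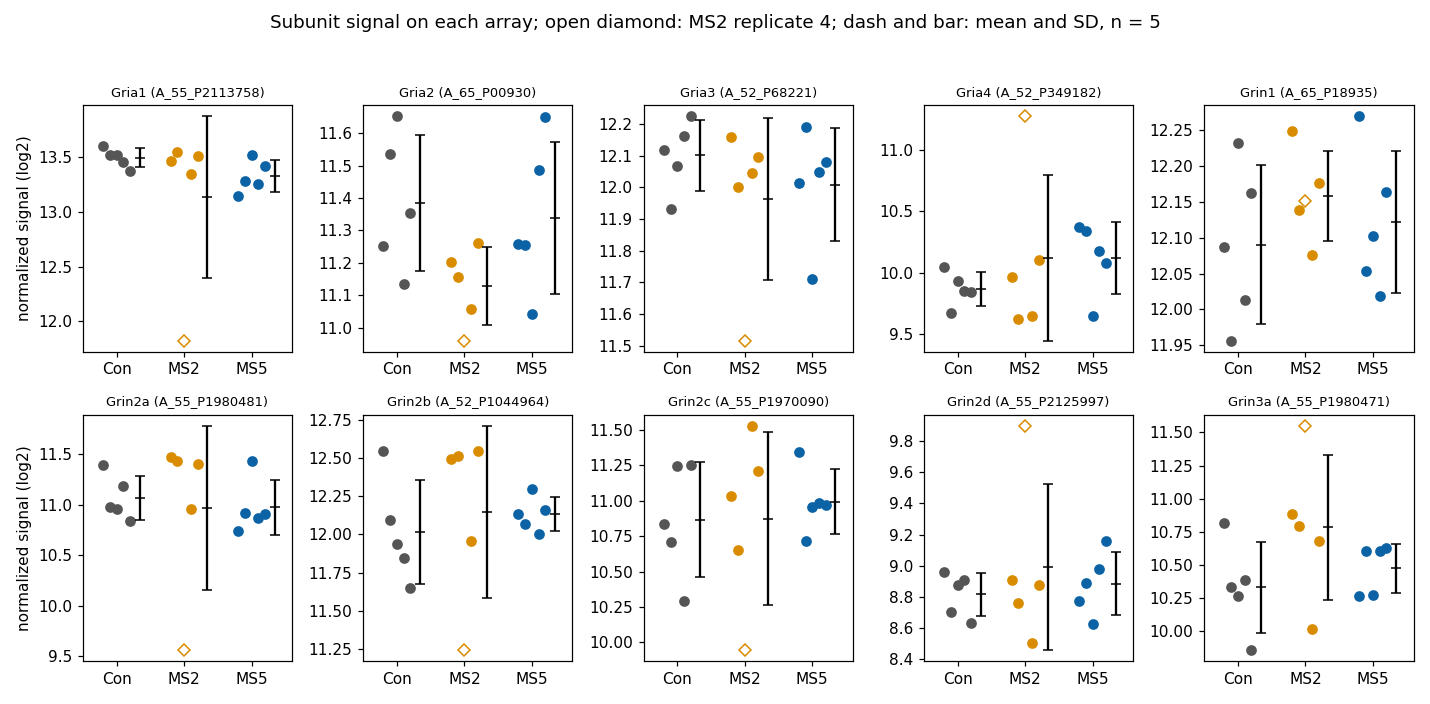
Normalized log2 signal (y axis) of the representative probe of each subunit on every array of Con, MS2 and MS5 (x axis), with dashes and bars for the mean and SD (n = 5). MS2 replicate 4, the open diamond, lies below all other arrays at Gria1, Gria2, Gria3, Grin2a, Grin2b and Grin2c, above them at Gria4, Grin2d and Grin3a, and among them at Grin1; each panel has its own scale.

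The widest variation of the subunits was on a single array. On MS2 replicate 4, 14 of the 16 subunit probes lay outside the range of the 14 other arrays, 10 below and 4 above, and only the 2 Grin1 probes lay within it. Over all 55681 probes 30.3% lay outside on this array. On each other array between 0 and 4 subunit probes did, the 4 on MS2 replicate 5, where 27.6% of all probes lay outside.

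The subunits that were low on this array included the major GluA and GluN2 subunits of the forebrain. Gria1 (GluA1) read 11.83 there and 13.14 to 13.60 on the other arrays, 3.11-fold below the mean of the 4 other MS2 arrays. Grin2a read 9.56 against 10.74 to 11.48, 3.38-fold below that mean, and its second probe, printed above, read 7.24 against 7.69 to 8.28. The 2 Grin2a probes thus moved the same way. Both probes of Grin2b were lower than anywhere else, at 11.24 against 11.65 to 12.55 and at 10.84 against 11.69 to 12.18. Grin2c, the GluN2C subunit best known from cerebellar granule cells, read 9.94 against 10.29 to 11.53. Both probes of Gria2 and Gria3 were the lowest of all arrays too, but by less, between 1.16-fold and 1.47-fold below the other MS2 arrays.

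The subunits that were high were Gria4, Grin2d and Grin3a, 1 of the AMPA and 2 of the NMDA receptor. The Gria4 probe printed above read 11.27 against 9.63 to 10.38, and the second Gria4 probe 13.02 against 11.48 to 12.20, 1.44 and 1.32 (log2) above the mean of the other MS2 arrays. Grin2d read 9.90 against 8.51 to 9.16. Grin3a read 11.55 against 9.86 to 10.88, and a further probe described as NMDA3A but named by a transcript identifier read 13.09 against 11.83 to 12.51. Grin1, the obligatory NMDA subunit, read 12.15 against 11.96 to 12.27. Other marker lists moved on this array too: of 10 interneuron markers 5 lay above all other arrays, among them Gad1 and Gad2, and 2 below. Of 8 oligodendrocyte lineage markers 5 lay above and 1 below, and of 6 microglial markers 4 lay below. Their part in the subunit values was not tested. The array was chosen for this description after its values were seen, so no test was made of it. In bulk tissue, fewer cells of a type and less RNA per cell cannot be told apart.

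**Figure D2:**
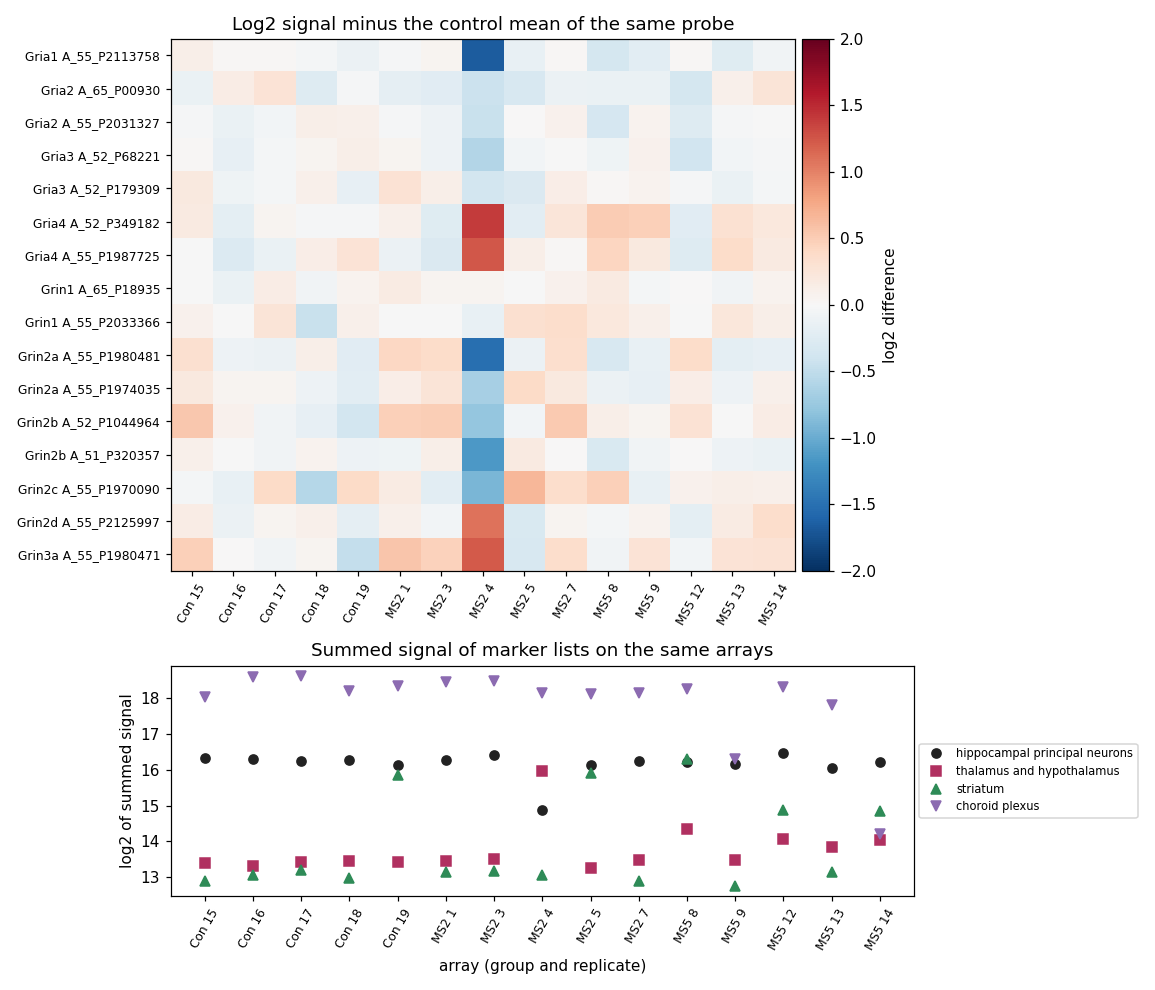
Upper panel: log2 signal of each of the 16 subunit probes (rows) on each array (columns) minus the Con mean of that probe, from blue (lower) to red (higher). Lower panel: log2 of the summed signal of 4 marker lists on the same arrays, where MS2 replicate 4 is lowest for hippocampal principal neurons (14.87) and highest for thalamus and hypothalamus (15.97).

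With all 15 arrays in 1 limma fit, 0 of the 10 subunit genes passed an unadjusted p of 0.05 between MS5 and Con, 1 passed between MS2 and Con (Gria2, lower) and 0 between MS5 and MS2. Over all probes 3.91%, 4.17% and 3.97% passed in these comparisons, so the counts were near the background. The arrays of the groups overlapped at all 16 subunit probes in each comparison, while they were apart at 0.832%, 0.699% and 0.625% of all probes. No subunit had a Benjamini-Hochberg adjusted p below 0.970 in limma, and over all probes 0 had an adjusted p under 0.05, with 2176, 2324 and 2211 past the unadjusted one. Both comparisons with Con share the Con arrays, and are given side by side. The median difference (log2) over the 10 genes was 0.05 for MS5 minus Con, 0.04 for MS2 minus Con and 0.00 for MS5 minus MS2, beside medians of 0.00 over all probes. By receptor, the 4 AMPA genes had medians of -0.07 (MS5) and -0.20 (MS2) against Con with 3 of 4 lower in each, and the 6 NMDA genes had 0.09 and 0.10 with 5 of 6 higher in each. MS2 replicate 4 moved both MS2 medians. Without it the AMPA median shrank to -0.03 (4 of 4 lower), whereas the NMDA median rose to 0.25 (5 of 6 higher).

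Gria2, whose product GluA2 sets calcium permeability, read 11.25, 11.54, 11.65, 11.13 and 11.36 on Con replicates 15 to 19. On MS2 replicates 1, 3, 4, 5 and 7 it read 11.20, 11.15, 10.96, 11.06 and 11.26. On MS5 replicates 8, 9, 12, 13 and 14 it read 11.26, 11.25, 11.04, 11.49 and 11.65. The MS2 arrays were all at or under the middle of the Con range, with replicates 4 and 5 lowest and below every Con array, and the MS5 arrays spanned that range. MS2 was lower than Con by -0.26 ± 0.11 (log2, SE; 95% interval -0.50 to -0.01), with p = 0.040 and an adjusted p of 0.970 in limma, and p = 0.056 in the two-sided exact permutation test, whose smallest p is 0.00794. The second Gria2 probe differed by -0.10 (exact permutation p = 0.460). Without MS2 replicate 4 the difference was -0.22 (exact permutation p = 0.119) and no longer passed in limma. Nor did it pass when Con replicates 16, 17 or 19 or MS2 replicates 3 or 5 were left out singly, at -0.27 to -0.19, or with an offset of 0, at -0.26.

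Gria1 encodes GluA1, a subunit moved into synapses during plasticity. Its Con arrays read 13.60, 13.52, 13.51, 13.45 and 13.37, in the order of replicates 15 to 19. The MS5 arrays read 13.14, 13.28, 13.52, 13.25 and 13.41 for replicates 8, 9, 12, 13 and 14. Replicates 8, 9 and 13 lay below all Con arrays and the other two among them. MS5 minus Con was -0.17 ± 0.25 (log2, SE; interval -0.71 to 0.37), with p = 0.515 in limma and p = 0.071 in the exact permutation test. That SE is shared with MS2 replicate 4. Without it the same difference had an SE of 0.07, a limma p of 0.027 and an adjusted p of 0.756. The MS2 arrays other than replicate 4 read 13.34 to 13.54, and MS2 minus Con was -0.35 with this array (exact permutation p = 0.333) and -0.03 without it (p = 0.643).

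Gria4 encodes GluA4, an AMPA subunit common in interneurons and in early postnatal life. Its Con arrays read 10.04, 9.68, 9.93, 9.85 and 9.84, and its MS5 arrays 10.38, 10.34, 9.65, 10.17 and 10.08. Of the 5 MS5 arrays, 4 lay above all Con arrays and replicate 12 lay below them. MS5 minus Con was 0.25 ± 0.25 (log2, SE; limma p = 0.323; exact permutation p = 0.111), and 0.19 at the second probe. Without MS2 replicate 4 the SE was 0.13 and the difference still did not pass (limma adjusted p = 0.884). MS2 minus Con was 0.26 with that array and -0.03 without it, and MS5 minus MS2 0.00 with it and 0.29 without it. The MS5 arrays also had higher sums of the thalamic and hypothalamic markers, 13.48 to 14.33 against 13.32 to 13.45 in Con. On MS5 replicates 8, 9, 12, 13 and 14 these sums were 14.33, 13.48, 14.06, 13.84 and 14.05. Their part in the Gria4 values was not tested. Gria3, which encodes GluA3, was within 0.14 of Con in both treated groups at both probes, and did not pass in either.

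Grin1, the subunit common to all NMDA receptors, had the narrowest range at its representative probe. Its values there lay between 11.96 and 12.27 on all 15 arrays, with MS5 minus Con at 0.03 ± 0.06 (log2, SE; interval -0.09 to 0.16) and MS2 minus Con at 0.07 ± 0.06 (interval -0.06 to 0.19). These intervals were the narrowest among the representative probes. The second, dimmer Grin1 probe ranged more widely, from 7.74 to 8.53, with differences from Con of 0.13 (MS5) and 0.10 (MS2) that did not pass.

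Grin2b, the GluN2 subunit of the perinatal forebrain, read 12.55, 12.09, 11.94, 11.84 and 11.65 on Con replicates 15 to 19. On MS2 replicates 1, 3, 4, 5 and 7 it read 12.49, 12.51, 11.24, 11.96 and 12.54, and on the MS5 arrays 12.00 to 12.30. Of the MS2 arrays, replicates 1, 3 and 7 stood near the highest Con array, replicate 5 in the middle of Con and replicate 4 below it. MS2 minus Con was 0.13 (exact permutation p = 0.659) and MS5 minus Con 0.12 (p = 0.484). The second Grin2b probe went the other way in both comparisons, at -0.18 and -0.12, so the probes disagreed in sign. Without MS2 replicate 4, MS2 minus Con was 0.36 at the first probe (limma p = 0.038, adjusted p 1.00, exact permutation p = 0.127) and 0.06 at the second (exact permutation p = 0.397).

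Grin2a encodes GluN2A, the subunit that increases as hippocampal synapses mature. It read 11.39, 10.97, 10.95, 11.19 and 10.84 in Con and 11.48, 11.44, 9.56, 10.96 and 11.41 in MS2. The MS5 arrays read 10.74, 10.91, 11.44, 10.87 and 10.91. In MS2, 3 arrays lay above all Con arrays and replicate 4 far below, and in MS5 replicate 12 alone lay above Con. With all arrays, the differences from Con were -0.10 in both treated groups (exact permutation p = 0.944 for MS2 and 0.548 for MS5), and MS5 minus MS2 was 0.01. MS2 minus Con turned to 0.25 without MS2 replicate 4 (exact permutation p = 0.135).

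Without MS2 replicate 4, MS5 minus MS2 turned to -0.35 ± 0.15 (log2, SE; limma p = 0.035, adjusted p 0.730; exact permutation p = 0.063). The second Grin2a probe gave -0.27 ± 0.09 (limma p = 0.0067, adjusted p 0.705; exact permutation p = 0.040) and, for MS2 minus Con, 0.24 (limma p = 0.013, exact permutation p = 0.040). Grin2a thus was lower in MS5 than in the remaining 4 MS2 arrays at both probes, with overlapping arrays and no adjusted call. In this fit 3299, 2227 and 3781 of all probes, that is 5.92%, 4% and 6.79%, passed the unadjusted p for MS5 against Con, MS2 against Con and MS5 against MS2. Of the 10 genes 1 passed in each: Gria1, Grin2b and Grin2a. Of the 16 probes 1, 2 and 3 passed. Those of MS5 against MS2 included the second Grin2b probe, at -0.18 (limma p = 0.022, adjusted p 0.717; exact permutation p = 0.063). The first Grin2b probe stood at -0.24 there and did not pass. MS2 replicate 4 was singled out after its values were seen.

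Grin3a encodes GluN3A, which lowers the calcium flow of NMDA receptors and is abundant in early postnatal brain. It read 10.81, 10.33, 10.27, 10.39 and 9.86 in Con, and 10.88, 10.79, 11.55, 10.02 and 10.68 in MS2. The MS5 arrays read 10.27, 10.61, 10.27, 10.60 and 10.62. In MS2, replicates 1 and 4 lay above all Con arrays and replicate 5 near the lowest. The lowest arrays of the groups were Con replicate 19, MS2 replicate 5 and MS5 replicate 8. Their striatal marker sums were high, at 15.85, 15.90 and 16.30. The sum was also high on MS5 replicate 12 (14.89), where Grin3a read 10.27. On MS5 replicate 14 (14.85) Grin3a read 10.62, the highest of MS5. The part of this sum in the Grin3a values was not tested. MS2 minus Con was 0.45 ± 0.22 (log2, SE; limma p = 0.062; exact permutation p = 0.143), a 1.37-fold difference and the largest of the 10 genes. The probe described as NMDA3A but named by a transcript gave less, at 0.12 for MS2 minus Con and -0.03 for MS5 minus Con, and passed in neither. At the Grin3a probe the MS2 difference was 0.26 without replicate 4 (exact permutation p = 0.294). Without replicate 5 it was 0.65 and passed the unadjusted threshold in limma (adjusted p = 0.734), so these arrays moved it in opposite ways. MS5 minus Con was 0.14 (exact permutation p = 0.421).

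Grin2c and Grin2d, which encode GluN2C and the early, interneuron-associated GluN2D, had overlapping ranges in all groups. Grin2c ranged from 10.29 to 11.25 in Con, 9.94 to 11.53 in MS2 and 10.71 to 11.35 in MS5, with differences from Con of 0.01 and 0.13 (exact permutation p = 0.992 and 0.603). Grin2d ranged from 8.64 to 8.96 in Con, 8.51 to 9.90 in MS2 and 8.63 to 9.16 in MS5, with differences of 0.17 and 0.07 (exact permutation p = 0.675 and 0.532). MS2 minus Con without MS2 replicate 4 was 0.24 for Grin2c (exact permutation p = 0.365) and -0.05 for Grin2d.

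**Figure D3:**
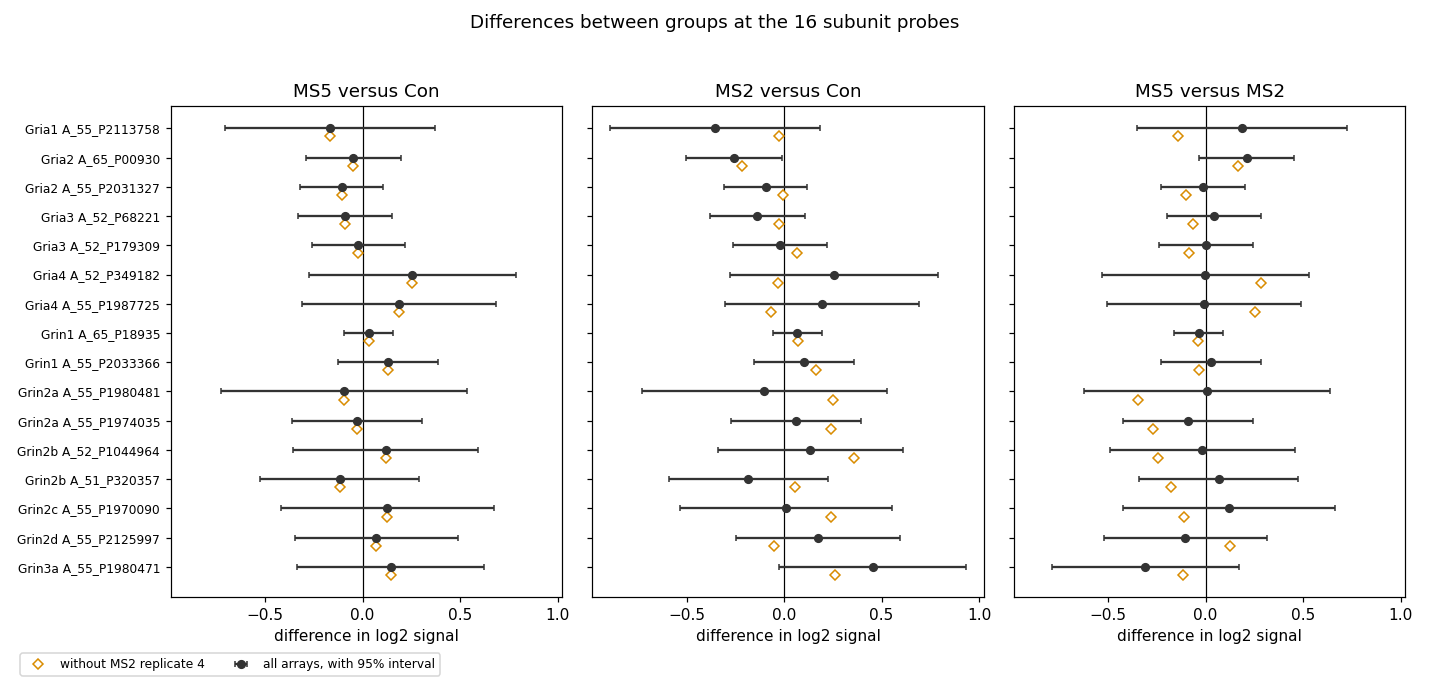
Difference in log2 signal (x axis) between groups at the 16 subunit probes (y axis), from the limma fit of all 15 arrays with 95% intervals (black) and from the fit without MS2 replicate 4 (open diamonds). With all arrays the interval crosses 0 at every probe except Gria2 A_65_P00930 between MS2 and Con; the diamonds of both Grin2a probes lie at -0.35 and -0.27 between MS5 and MS2.

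The arrays had been hybridized on 2 slides, each scanned in 1 run. Slide 1 held Con replicates 15, 17 and 18, MS2 replicates 1, 3 and 7 and MS5 replicates 8 and 13, and slide 2 the other 7 arrays, among them the 3 that stood apart (MS2 replicates 4 and 5 and MS5 replicate 9). With slide as a block the counts of genes past the unadjusted p were as before, at 0, 1 and 0. On slide 1 alone, 3 of 10 genes passed between MS5 and Con: Gria1 at -0.32 and Grin2a at -0.37 were lower, and Gria4 at 0.33 was higher (limma adjusted p = 0.234, adjusted p = 0.476 and adjusted p = 0.599). Over all probes 7.79% passed in that fit. On slide 2 alone 0 passed in that comparison, and Gria1 differed by -0.04. Between MS5 and MS2 on slide 1, Gria1 (-0.31), Grin2a (-0.64) and Grin2b (-0.45) were lower and Gria4 (0.38) higher, 4 of 10 genes beside 8.29% of all probes. MS5 had only 2 arrays on slide 1, replicates 8 and 13, and both had low Gria1 and high Gria4.

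Differences between 2 probes on the same array cancel the overall brightness of that array. Their size has no meaning of its own, so only their change between arrays is described, with no test. Grin2a minus Grin2b, followed for the exchange of GluN2B by GluN2A, had a mean of -0.95 ± 0.21 in Con, -1.18 ± 0.28 in MS2 and -1.16 ± 0.20 in MS5 (log2, SD). The Con arrays lay between -1.16 and -0.66, and the MS5 arrays between -1.39 and -0.86. In MS2, replicate 4 stood at -1.68 and the other 4 arrays had a mean of -1.06. With the other probe of each gene, Con lay between -4.27 and -3.97 and the MS2 arrays between -3.95 and -3.60, all above Con. The margin was slight, between Con replicate 17 at -3.969 and MS2 replicate 3 at -3.954, and the array at -3.60 was MS2 replicate 4. How often other pairs of probes separate the groups was not computed. MS5 had a mean of -4.01 ± 0.13 with these other probes, against -4.10 ± 0.13 in Con. The 2 pairs of probes thus gave opposite directions for both treated groups. Gria2 minus the mean of Gria1, Gria3 and Gria4 was -0.43 ± 0.25 in Con, -0.61 ± 0.04 in MS2 and -0.48 ± 0.20 in MS5, with overlapping ranges. MS2 was the most uniform group there, and replicate 4, at -0.58, lay inside it. On replicate 4 opposite shifts were averaged in that mean. Against the mean of the other MS2 arrays Gria1 stood at -1.64, Gria3 at -0.56 and Gria4 at 1.44, beside -0.21 for Gria2. The value therefore does not show that Gria2 kept its level relative to each of them. Grin2d minus Grin2b was -3.20 ± 0.28 in Con, -3.16 ± 1.02 in MS2 and -3.25 ± 0.28 in MS5. Replicate 4, at -1.34, stood apart, and the other 4 MS2 arrays lay between -3.75 and -3.45, in or below the lower part of the Con range of -3.59 to -2.93.

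**Figure D4:**
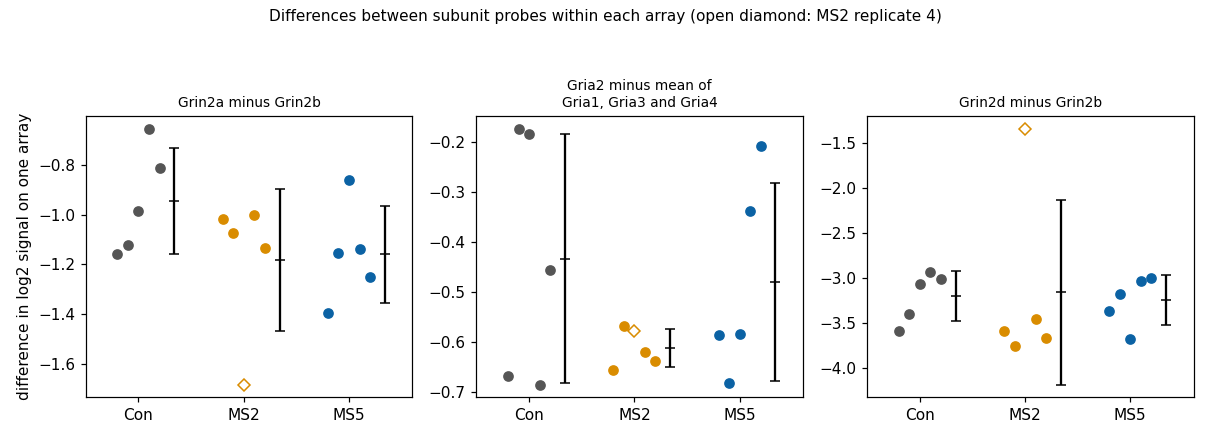
Difference in log2 signal between subunit probes on the same array (y axis) in Con, MS2 and MS5 (x axis), with dashes and bars for mean and SD (n = 5) and an open diamond for MS2 replicate 4. That array stands at -1.68 for Grin2a minus Grin2b and at -1.34 for Grin2d minus Grin2b, outside the other arrays. It stands at -0.58, within them, for Gria2 minus a mean over subunits that shifted in opposite directions on it.

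How the subunits varied together among pups was read from the 45 pairs of genes over the arrays, after subtracting each group's mean. Over 15 arrays 4 pairs had an adjusted permutation p under 0.05 for Pearson's r, all positive. Over the 14 arrays without MS2 replicate 4, an alternative chosen after seeing the data, the 4 that passed were the same pairs. The share among pairs of other genes was not computed, so these counts have no background beside them. Gria1 and Grin2a had r = 0.95 and rho = 0.88 over all arrays (permutation p = 1.9e-04 and 0.0013, adjusted 0.0028 and 0.019). Without MS2 replicate 4 they had r = 0.82 and rho = 0.73 (permutation p = 0.0011 and 0.0072, adjusted 0.017 and 0.11). Leaving out also the 2 arrays farthest from the median, r was 0.70, and within slides it was 0.79 and 0.90.

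Gria1 also varied with Grin2b, at r = 0.70 and rho = 0.80 without MS2 replicate 4 (permutation p = 5.5e-04 and 2.9e-04, adjusted 0.012 and 0.013). Grin2a and Grin2b had r = 0.76 and rho = 0.71 there (permutation p = 0.0044 and 0.012, adjusted 0.050 and 0.13). Grin2d and Grin3a, both of early life, had r = 0.80 and rho = 0.77 (permutation p = 5.3e-04 and 0.0026, adjusted 0.012 and 0.058). Without the 2 farthest arrays these 3 had r of 0.88, 0.70 and 0.72, and in both slides r was 0.64 or more. With all 15 arrays their r was 0.85, 0.90 and 0.86 (adjusted permutation p of 0.0028, 0.0090 and 0.0028). The points share arrays and normalization.

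For each subunit the 3 genes most like it over the 15 arrays were taken by Pearson's r, with group means subtracted, among 25518 genes whose probe was well above background on all arrays. These 30 had r from 0.82 to 0.99, and from 0.81 to 0.94 without MS2 replicate 4, and 15 of them carried a symbol found in RefSeq. The choice depended on that array: taken without it, the 3 most like genes of each subunit shared only 3 of 30 with these (2210404J11Rik for Gria2, Ddx17 for Grin1 and Rit2 for Grin2d). For Gria1 these were Nr3c2, the mineralocorticoid receptor (r = 0.99, and 0.90 without that array), and Arhgap15 (0.99 and 0.84). For Grin2a they were Ak5 (0.98 and 0.92) and Cplx2, the presynaptic complexin 2 (0.98 and 0.92). For Gria4 they were Ntng1, netrin-G1 (0.96 and 0.86), and Ntm, neurotrimin (0.95 and 0.81), and for Grin2d Rit2 (0.97 and 0.93). For Gria3 they were Cdkl4, Klf5 and Efnb2 (0.94, 0.93 and 0.92), for Grin2c the activity-induced Egr1 (0.94), for Gria2 Shc4 (0.82), for Grin1 Ddx17 (0.85) and 4930431P19Rik (0.86), and for Grin3a 4930590A17Rik (0.95). Grin2b had none with such a symbol. With so many candidates and few arrays these are descriptions only.

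Few other genes of glutamatergic signalling passed the test. Of 80 listed genes (other ionotropic subunits, auxiliary subunits, postsynaptic scaffolds, kinases and phosphatases, and editing and co-agonist enzymes) 78 were found, without Nptxr and Frrs1l. Between MS5 and Con 3 were higher and 0 lower past the unadjusted p, between MS2 and Con 2 higher and 0 lower, and between MS5 and MS2 1 higher and 1 lower. These are 3.85%, 2.56% and 2.56% of the list, no more than the 3.91%, 4.17% and 3.97% of all probes. Their median differences (log2) were 0.04, 0.04 and 0.03. The widest single differences were larger than those of the subunits but did not pass, such as Camk2a, a kinase of the postsynaptic density, at -0.59 in MS2 minus Con, and Gsg1l, an AMPA receptor partner, at 0.52 in MS5 minus Con. None of the 8 kainate, delta and other NMDA subunits passed, nor did Grina, which shares the list but is not a receptor subunit.

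The genes that passed are named for their values. Cacng3, the AMPA receptor partner TARP gamma-3, was 0.33 ± 0.13 higher in MS5 than in Con (log2, SE). The scaffold gene Epb4.1l1, whose protein binds GluA1, was higher by 0.18 in MS5 and by 0.23 in MS2, comparisons that share the Con arrays. Adarb2, an RNA editing family member, was 0.16 higher in MS5. Grip2, a scaffold of GluA2 and GluA3, was 0.12 higher in MS2. Both probes were dim, with Con means of 6.68 for Adarb2 and 6.43 for Grip2. The Grip2 probe was well above background on 14 of 15 arrays. Between MS5 and MS2, Neto2, a kainate receptor partner, was 0.23 higher and Nptx2, a pentraxin that clusters AMPA receptors, was lower by -0.27. All had limma adjusted p of 0.970 or more.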

How the data were processed

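Hippocampal mRNA was measured on 15 Agilent arrays, 5 per group. The authors deposited the scanner's intensity per spot (Feature Extraction 10.7.1.1) and a table of log2 values that they had background adjusted with normexp and quantile normalized. Here, in R 4.3.3 with limma 3.58.1, mean spot signals were adjusted with normexp (offset 50) against the median local background, quantile normalized over all 62976 spots and averaged per probe, without the 3671 control spots. At the 16 subunit probes this gave the deposited log2 values within 5.0e-09. limma (lmFit, eBayes) was fitted to all 15 arrays and 3 groups, with Benjamini-Hochberg adjustment over 55681 probes. Exact permutation tests were two-sided over 252 assignments (126 where MS2 replicate 4 was left out of a comparison), and p of correlations came from 1e+05 permutations within groups. Fold differences are on the log2 scale with offset 50, which understates changes of dim probes. The number of arrays limited the precision. The limma fit was tested on simulated data of normal spread, with changes planted in MS5 against Con and no array made to stand apart. Named genes were the 10 subunits, context genes past the unadjusted p (at most 5 per comparison), the 3 genes most like each subunit, Xist, and markers. The members and lists were chosen with earlier results of these data known. Littermates could not be told from the labels. The miR arrays were not used here.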

Additional observations from a re-analysis of the deposited data

Results flagged for a closer look

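Each subunit probe was examined within each group of 5 arrays for a highest or lowest array far from the others, by Dixon's gap over range. Of 48 groups 8 were flagged, where chance would flag about 1 in 20 independent groups. The probes share arrays, and some share a gene, so the flags are not independent. The share of flagged groups over all probes was not computed. Of the 8, 7 were MS2 replicate 4, where 30.3% of all probes lay outside the range of the other arrays. That array was low at Gria1 (11.83, nearest MS2 array 13.34), at the first Gria3 probe (11.52, nearest 12.00), at both Grin2a probes (9.56, nearest 10.96, and 7.24, nearest 8.03) and at the second Grin2b probe (10.84, nearest 11.91). It was high at both Gria4 probes (11.27, nearest 10.10, and 13.02, nearest 11.88). Its sum of hippocampal principal neuron markers was also the lowest of all arrays and its sum of thalamic and hypothalamic markers the highest, and their part in the subunit values was not tested. The remaining one was MS5 replicate 12, high at the first Grin2a probe (11.44, nearest 10.91).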

How the results depend on the processing

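No paired analysis was possible because the mRNA groups share no replicate numbers. Under 13 other settings, each array left out in turn, and 3 arrays left out together (MS2 replicates 4 and 5 and MS5 replicate 9, chosen after seeing the data), no subunit gene reached an adjusted p under 0.05, the smallest being 0.173. The count of genes past the unadjusted p was 0 for MS5 against Con. It was 3 on slide 1 alone, 1 with only the 2 groups compared, 1 without the 3 arrays, and 0 to 1 with 1 array left out, the 1 without MS2 replicate 4. For MS2 against Con it was 1. It was 2 with array weights and on slide 1 alone, 0 with an offset of 0, on slide 2 alone and with the mean of all probes, 3 without the 3 arrays (Grin2a, Grin2b at 0.50 and Grin3a at 0.45), and 0 to 2 with 1 array left out (0 without Con replicates 16, 17 or 19 or MS2 replicate 3, and 2 without Con replicate 15). For MS5 against MS2 it was 0. It was 4 on slide 1 alone, 1 on slide 2 alone, 2 without the 3 arrays, and 0 to 1 with 1 array left out (1 without MS2 replicates 4 or 5 or MS5 replicate 12). Without the 3 arrays 6.7%, 6.17% and 7.18% of all probes passed in these comparisons. On slide 1 alone 7.79%, 3.09% and 8.29% passed, and on slide 2 alone 3.44%, 5.27% and 6.61%. No such share was computed for array weights, an offset of 0, only the 2 groups compared or the mean of all probes. Among single left-out arrays, the share was computed only for MS2 replicate 4. Counts without a share have no background beside them. Direction turned, with a call, for Grin2a in MS2 minus Con on slide 1 (0.26) and without the 3 arrays (0.37). In MS5 minus MS2 it turned on slide 1 for Gria1 (-0.31), Gria4 (0.38) and Grin2a (-0.64), on slide 2 for Grin2b (0.58), and for Grin2a without MS2 replicate 4 (-0.35; with 1 array left out it ranged from -0.35 to 0.13) and without the 3 arrays (-0.45). On slide 2 MS2 had only replicates 4 and 5, both among the arrays that stood apart. With all arrays, MS5 minus MS2 was -0.0007 for Gria4, 0.006 for Grin2a and -0.02 for Grin2b, so their sign had little meaning. The cause of these turns was not tested. All other settings kept these counts. With 5 arrays a group, an observed difference smaller than the half-width of its interval did not pass the unadjusted p in that fit. True differences of that size or larger could be missed.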
